A study of Mus musculus with 12 samples.

Results

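The genes described here encode the subunits of the proteasome and the proteins that assemble or regulate it. They were chosen by symbol alone, as every gene whose symbol begins with Psm, a letter from a to g and a digit, which gave 50 of the 15803 transcripts with a read in at least 1 library. KPC cells, a mouse PDAC line derived from mice in which Pdx1-Cre, active in the pancreas, switches on alleles that include Trp53 LSL-R172H, so that the cells of every group carry mutant Trp53, were treated with 20 μM cisplatin (Cis) for 6 h or 21 h, or received no Cis. The control cells are labelled as untreated, and the study's methods describe the control as PBS, for a time that is not labelled, so they are called PBS here. Each of these 3 groups had 2 footprint libraries and 2 RNA-seq libraries, 12 libraries in all, from a single cell line, and the labels do not say whether libraries of a group came from separate cultures, so the p-values measure only the spread between these libraries. In ribosome profiling the RNA fragments protected by ribosomes (footprints) are sequenced. Footprints on a coding sequence measure its translation relative to other transcripts, whereas RNA-seq of the same lysates measures mRNA in the same relative way. The ratio of both is the translation efficiency (TE).

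The proteasome is the protease that degrades proteins tagged with ubiquitin. Its 20S core is a barrel of stacked rings, with outer rings of alpha subunits that gate the entrance and inner rings of beta subunits, of which Psmb5, Psmb6 and Psmb7 carry the proteolytic sites. The 19S regulatory particle caps the barrel, with a ring of ATPases (Psmc genes) that unfold substrates and non-ATPase subunits (Psmd genes) that bind ubiquitin and remove it. Dedicated chaperones (Psmg1 to Psmg4 for 20S, Psmd5, Psmd9 and Psmd10 for 19S) assist assembly, and Psme1 to Psme4 encode alternative activators. Interferon exchanges the catalytic subunits for Psmb8, Psmb9 and Psmb10, which forms the immunoproteasome. When proteasome activity falls short, the transcription factor NFE2L1 raises the expression of proteasome genes through antioxidant response elements in their promoters.

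Promoters were therefore searched for the core of that element, TGACNNNGC (N is any base), on both strands of the window from 250 bases before to 50 bases after the transcription start of RefSeq, build GRCm38.p6. A promoter was given for 43 of the 50 members (not for Psmb1, Psmb2, Psmb7, Psmc3, Psmd3, Psmd7 and Psmg2), and 6 of these (13.95%) held the core, against 13.99% of 27025 genes. The 4 shown here belong to members whose values are described below, the catalytic subunits Psmb5 and Psmb6, an ATPase that rose and an activator that fell, with the core in capitals and the strand of the gene printed 5′ to 3′. For Psmc6 and Psme4 the core lies on the opposite strand and is printed as its reverse complement.
Psmb5 (chr14:54618024-54618052, minus strand): cgtgaagttgTGACGTCGCggcgttgcca
Psmb6 (chr11:70525338-70525366, plus strand): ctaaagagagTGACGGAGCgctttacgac
Psmc6 (chr14:45329587-45329615, plus strand): ccagccagtaGCTAAGTCAggcattgctc
Psme4 (chr11:30771758-30771786, plus strand): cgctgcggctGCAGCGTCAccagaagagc
The other 2 were Psmd12 and Psmd9. The NF-Y box, CCAAT, a short element common near start sites, was found in 16 of the 43 members on either strand (37.2%, against 41.1% of the 27025 genes). On the strand of the gene alone it was in 14 (32.6%, against 23.7%). It lay on both strands in members that rose (Psma1 and Psmd4), in Psmd14, which fell in footprints, and in Psma3 and Psma6, which were not called at 21 h, among others. A copy is shown for the first 3, with the box in capitals.
Psma1 (chr7:114276200-114276224, minus strand): gagcttcctgCCAATcccacgttct
Psmd4 (chr3:95042580-95042604, minus strand): gagcaccaggCCAATcggaggtgct
Psmd14 (chr2:61711688-61711712, plus strand): ccggcggactCCAATtggcggtaga
A match of letters is not a binding site, and no binding was measured in these cells.

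Footprint libraries held 3375480 to 5204127 reads and RNA-seq libraries 1985344 to 2901692, of which 862476 to 1341584 were left without 3 very abundant transcripts (Lars2, Tmem38b and Mettl26). RNA-seq changes therefore rest on fewer reads than footprint changes. Keratins of ductal epithelium were abundant (Krt8 at 3146 to 4931 scaled RPKM in footprints), whereas the ductal markers Epcam, Cldn4 and Muc1 were near 0 in all libraries. The summed footprint level of 10 ductal markers was 9366 to 9798 with PBS and 6653 to 6802 at 21 h. Of these Krt7, Krt8, Krt19 and Cdh1 were lower in footprints at 21 h, Sox9 was higher (1.07, adjusted p = 0.00178, limma) and Krt18 was not called (0.06). In RNA-seq Krt18 (0.26, adjusted p = 0.0187, limma) and Sox9 were called higher, Krt8, Krt19 and Cdh1 lower, and Krt7 was not called. In footprints 5 leukocyte markers summed to 1.72 to 10.2, lowest at 6 h and highest at 21 h. In the same libraries 4 fibroblast markers summed to 7.85 to 17.8, 2 endothelial markers to 0 to 0.663, and Cela1, the only one of 6 acinar and islet markers with footprints, had 1.67 to 6.00. At 21 h against PBS, Cela1 footprints were called higher (1.18, adjusted p = 0.0154, limma) and Acta2 footprints lower (-0.81, adjusted p = 0.0418). Cd68 RNA was called higher (1.52, adjusted p = 0.0299, limma), on at most 9 reads per library. The part of these markers in the results was not tested. All levels are scaled RPKM (reads divided by length and by the library's total, with a scaling factor per library). They are relative to the other transcripts of an assay, so a change of total translation or total RNA per cell is not seen in them. The paper reports, from a puromycin assay, that Cis inhibited protein synthesis. A rise here is therefore a rise relative to other transcripts. Footprints were counted over coding sequences and RNA-seq reads over transcripts, and changes are log2 fold changes of scaled RPKM + 0.5.

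Reads on the 50 members made up 1.15% of footprints in both PBS libraries, 1.25% in both 6 h libraries, and 1.46% and 1.42% at 21 h. In RNA-seq they were 0.334% and 0.337% with PBS, 0.351% and 0.350% at 6 h, and 0.447% and 0.485% at 21 h. The share at 21 h lay above that of every earlier library in both assays. The RNA-seq totals include Lars2, Tmem38b and Mettl26. Without them 1119096 of 2462084 reads were left in the first PBS library and 862476 of 1985344 in the first 6 h library. The members' share of the other reads is therefore higher, and its steps between groups differ. These are bulk lysates, in which more cells of a kind and more RNA per cell cannot be told apart. Of the 50 members, 48 had a mean scaled RPKM of at least 1 and were tested in each assay. Psmb11, the thymus-specific catalytic subunit, had 1 read in 1 RNA-seq library and 0 in the other 11. Psme2b, a near copy of Psme2 with which it can share reads, had at most 3 reads in any library. Psma8, the testis-specific alpha subunit, was not listed in any library.

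With PBS, the footprint levels of the 14 constitutive 20S subunits spanned 4.51-fold in the first library and 4.71-fold in the second. Their footprint levels ran from 176 to 793 scaled RPKM in the first PBS library and from 171 to 806 in the second, and Psmb2 was lowest and Psmb3 highest in both. The 17 subunits of the 19S particle ran from 93.0 (Psmd8) to 535 (Psmd4) and from 86.3 to 651. Across all 6 footprint libraries the SD of log2 levels was 0.675 to 0.739 among 20S subunits and 0.754 to 0.866 among 19S subunits, whereas it was 2.35 to 2.48 over all transcripts tested (group means). In RNA-seq it was 0.702 to 0.814 and 0.542 to 0.754, against 1.79 to 1.90 over all. Over all members read in both PBS libraries the SD was 1.92 in footprints and 1.47 in RNA-seq. The transcripts tested include low ones, which widens their SD. The catalytic subunits of the immunoproteasome were lower than those they replace. Psmb8 footprints were 6.92 and 5.28 scaled RPKM with PBS, Psmb9 31.7 and 39.6, and Psmb10 98.8 and 92.4, while Psmb5, Psmb6 and Psmb7 lay between 244 and 350 in the same libraries.

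**Figure D1:**
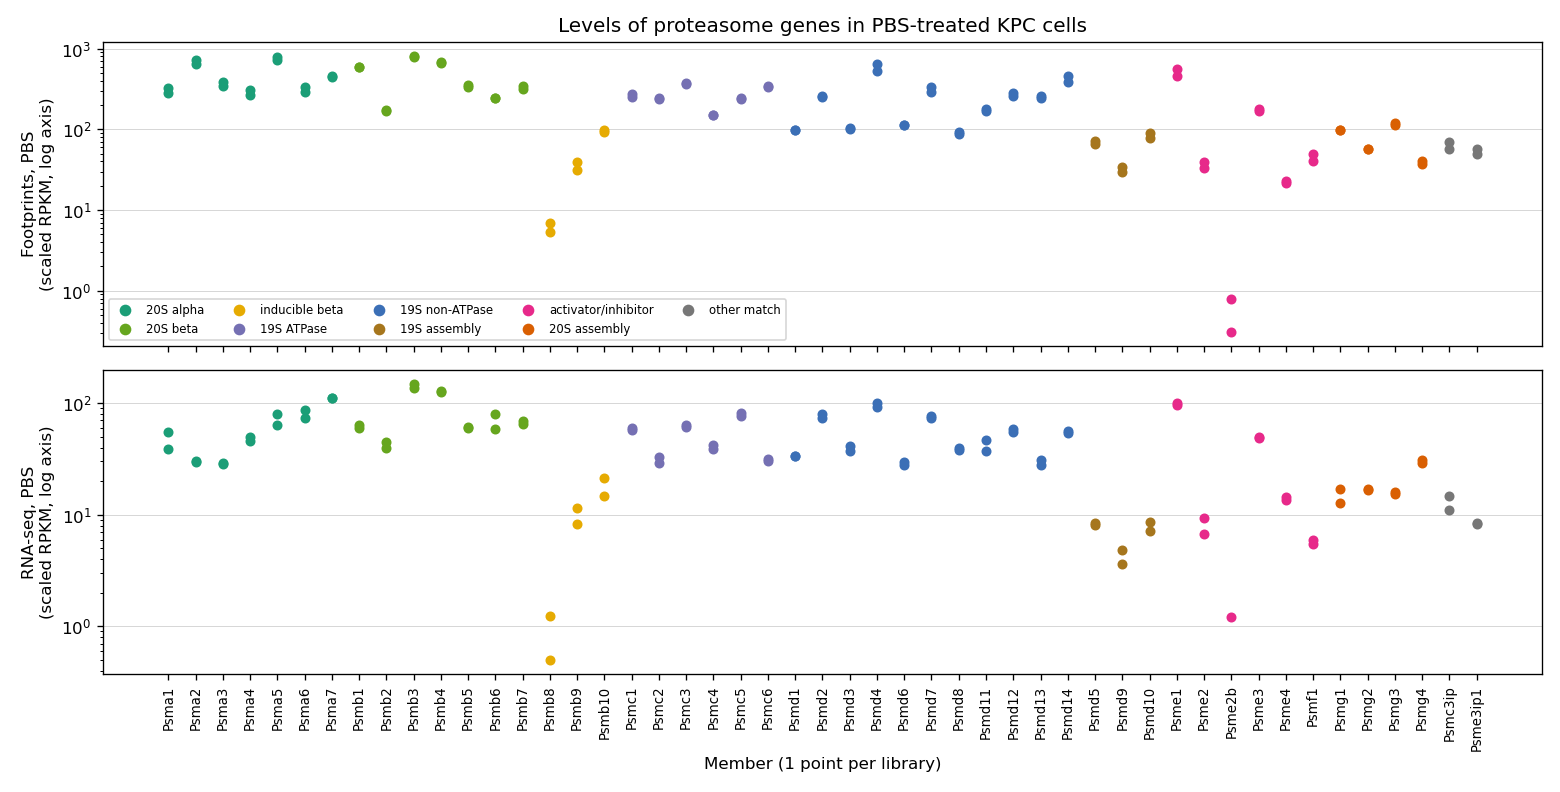
Levels of the proteasome genes in PBS-treated KPC cells (scaled RPKM, log axis), footprints above and RNA-seq below, with a point per library and a color per role; Psmb11 and values of 0 cannot be drawn on this axis. In footprints the 14 constitutive 20S subunits lie between 171 and 806, and Psmb8 (5.28 and 6.92) and Psme2b are far below them.

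After 21 h of Cis, footprints of 24 of the 48 members tested were higher than with PBS and those of 2 were lower (limma with Benjamini-Hochberg adjustment over all 10383 transcripts, adjusted p under 0.05). Over all transcripts 18.9% were higher and 20.2% lower. The median change of the members was 0.31, against 0.0063 over all transcripts, and 38 of 48 were above 0. Both 21 h libraries lay above both PBS libraries in 31 members and below in 5, where over all transcripts 35.4% lay above and 35% below. The 24 included subunits of both particles, Psmd5, Psmf1, Psmg3 and the 2 members that are no proteasome parts. In RNA-seq 22 of 48 were higher and 0 lower (11.6% and 12.2% of 9443 transcripts), with a median of 0.38 against 0.017 over all, and 42 were above 0. At an unadjusted p under 0.05, 1 member was lower in RNA-seq, Psmg2 (18.2% over all transcripts), and the voom alternative on whole reads also called 0 lower. Libraries did not overlap in 35 members higher and 3 lower (33.3% and 30.6% over all). The RNA count was 6 with eBayes without trend, a single prior variance for all transcripts, where 712 transcripts were higher in place of 1093. It also depended on single libraries, with 11 without either PBS library, 15 without the first 21 h library and 14 without the second. The footprint count was 16 with eBayes without trend, where 1637 of all transcripts were higher in place of 1960. It was 21 or 22 without any 1 library.

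**Figure D2:**
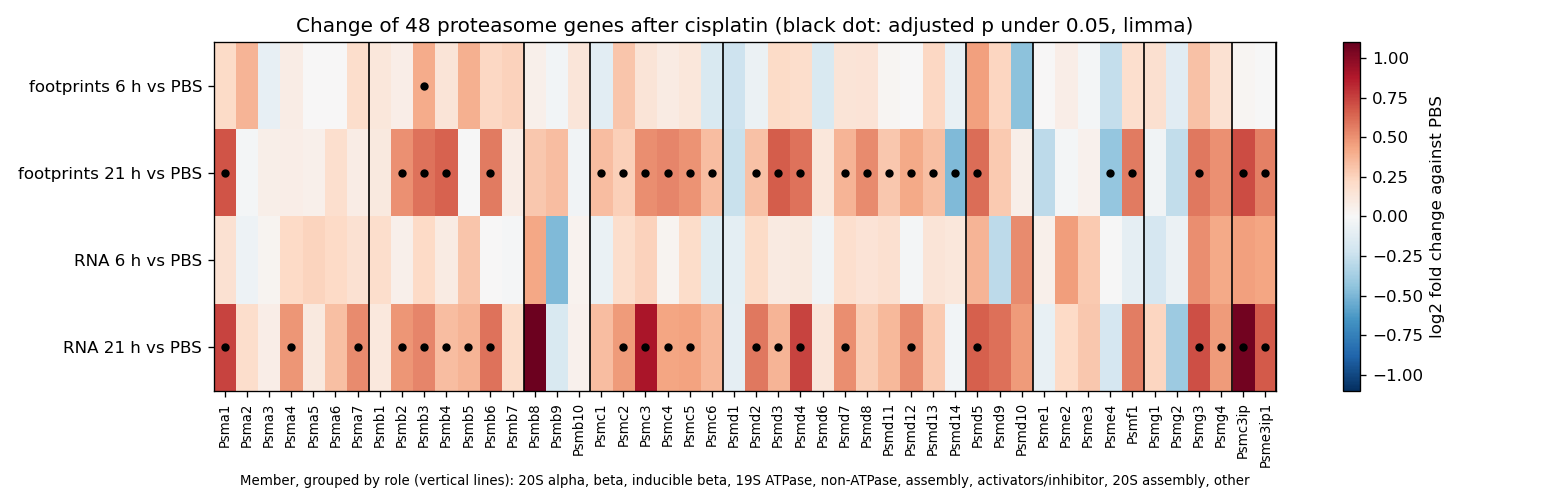
Log2 fold changes of the 48 tested members against PBS (color, red for higher) in footprints and RNA-seq at 6 h and 21 h, ordered by role, with a black dot where limma's adjusted p was under 0.05. The 21 h rows hold 26 dots in footprints and 22 in RNA-seq, the 6 h rows 1 and 0, and all 6 ATPases (Psmc1 to Psmc6) have a dot in footprints at 21 h.

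The alpha subunits form the outer rings of the core. Of the 7, only Psma1 was called in footprints at 21 h. Psma1 (ENSMUSG00000030751) had 328 and 282 scaled RPKM with PBS, 359 and 346 at 6 h and 493 and 488 at 21 h, with both 21 h libraries above all others. Its change at 21 h was 0.69 (SE 0.09, adjusted p = 0.000654, limma). In RNA-seq it went from 39.0 and 55.2 with PBS and 48.5 and 56.2 at 6 h to 76.8 and 79.7, a change of 0.75 (SE 0.15, adjusted p = 0.00799, limma). Without the first PBS library, the lower one, the RNA call was lost (0.49, adjusted p = 0.0557). Psma4 and Psma7 rose in RNA-seq alone, by 0.49 and 0.52. Psma7 RNA was 110 and 111 with PBS and 155 and 163 at 21 h, whereas its footprints were 464 and 447 with PBS and 483 and 482 at 21 h, close to each other. The Psma4 call was lost without the second PBS library (adjusted p = 0.0766, limma) and without the first 21 h library (adjusted p = 0.0538). The other 4 subunits, Psma2, Psma3, Psma5 and Psma6, had footprint changes of -0.02 to 0.18 and RNA changes of 0.08 to 0.33, none called.

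Among the 7 constitutive beta subunits, footprints of Psmb2, Psmb3, Psmb4 and Psmb6 rose at 21 h. Psmb4 (ENSMUSG00000005779), a structural subunit, had 688 and 668 scaled RPKM with PBS, 772 and 723 at 6 h and 1074 and 1056 at 21 h. The 21 h libraries stood clear of the others, with a change of 0.65 (SE 0.07, adjusted p = 0.000306, limma). Psmb3 rose by 0.60 and Psmb2 by 0.50. In RNA-seq 5 of the 7 rose, Psmb2 (0.49), Psmb3 (0.54), Psmb4 (0.34), Psmb5 (0.38) and Psmb6 (0.60). The RNA calls of Psmb4, Psmb5 and Psmb6 were each lost without at least 2 of the 4 libraries compared (adjusted p up to 0.144, 0.132 and 0.2, limma), and that of Psmb2 without the second PBS library (0.0866) or the second 21 h library (0.0559), while that of Psmb3 was kept.

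Of the 3 catalytic subunits, only Psmb6 was called in footprints at 21 h. Psmb6 (ENSMUSG00000018286), the caspase-like subunit, had 245 and 244 scaled RPKM with PBS, 294 and 278 at 6 h and 354 and 376 at 21 h, with no overlap between the groups, and rose by 0.58 at 21 h (SE 0.08, adjusted p = 0.000796, limma). Psmb5 (ENSMUSG00000022193), the chymotrypsin-like subunit, had 350 and 337 with PBS, 439 and 463 at 6 h and 313 and 376 at 21 h. It was highest at 6 h, and its 21 h libraries lay on either side of those with PBS. The change of Psmb5 footprints was 0.39 at 6 h (adjusted p = 0.0794, limma) and -0.0021 at 21 h (95% interval -0.23 to 0.22). From 6 h to 21 h Psmb5 footprints fell by 0.39 (SE 0.10, adjusted p = 0.0181, limma). This fall was lost without either 6 h library (adjusted p = 0.0658 and 0.118, limma) and without the first 21 h library (-0.26, adjusted p = 0.0781). Psmb5 RNA was 59.8 and 61.4 with PBS, 80.0 and 70.1 at 6 h and 82.5 and 75.3 at 21 h, above PBS in all 4 treated libraries. Psmb7, the trypsin-like subunit, had footprints of 320 and 342 with PBS, 413 and 376 at 6 h and 336 and 364 at 21 h, also highest at 6 h, and none of its changes was called in any comparison with all libraries. Its RNA was 64.6 and 68.6 with PBS and 62.5 and 93.4 at 21 h, and without the lower 21 h library it was called higher (0.49, adjusted p = 0.0261, limma).

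**Figure D3:**
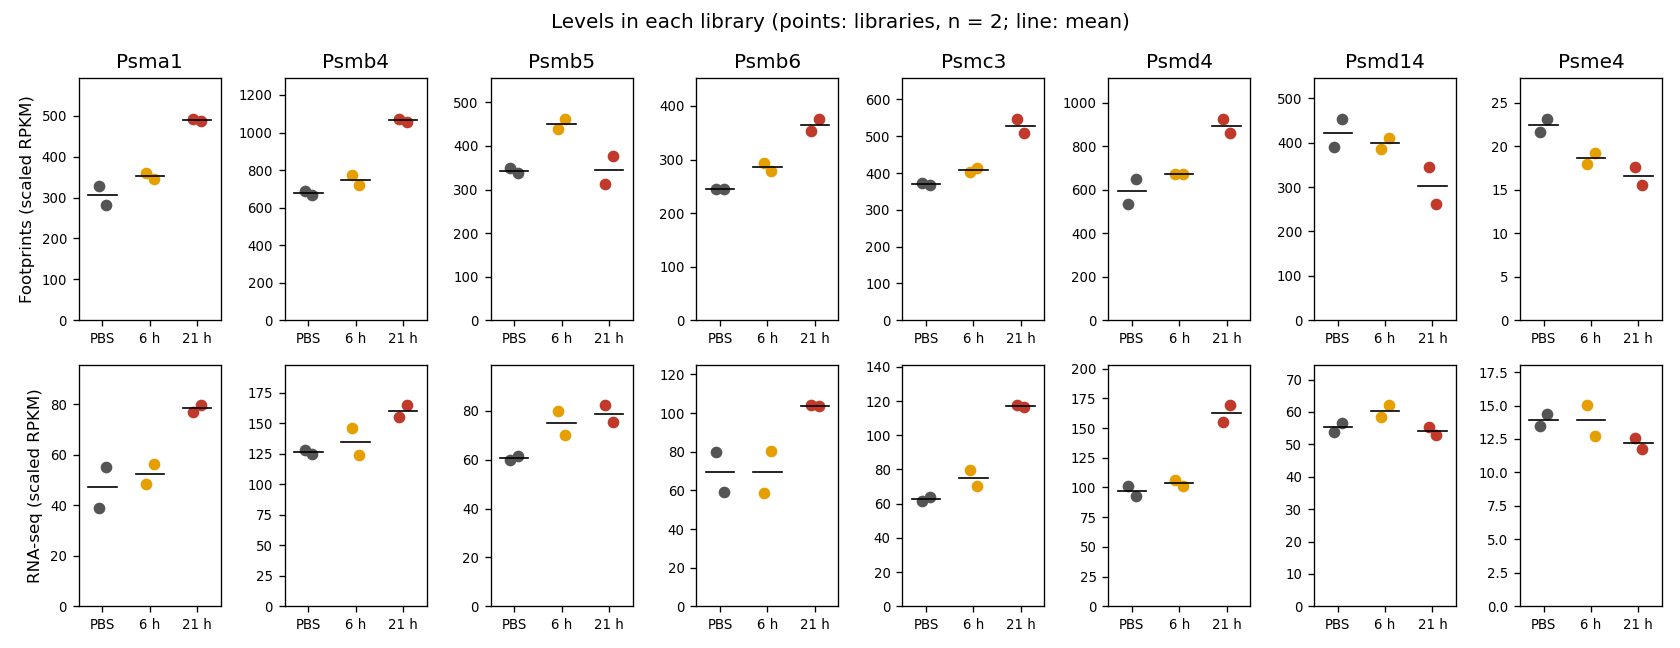
Scaled RPKM of 8 members in each library, footprints above and RNA-seq below, with a point per library (n = 2 per group) and a line at the mean; axes start at 0. Psma1, Psmb4, Psmb6, Psmc3 and Psmd4 are highest at 21 h in both assays, Psmb5 footprints are highest at 6 h (439 and 463), and Psmd14 and Psme4 footprints are lowest at 21 h.

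The immunoproteasome subunits were not called in either assay in the fit of all libraries. Psmb8 footprints were 6.92 and 5.28 scaled RPKM with PBS and 6.41 and 8.84 at 21 h, on 15 to 30 reads per library. Psmb8 RNA was read 2 and 6 times with PBS and 7 and 11 times at 21 h, so that its change of 1.08 (SE 0.40, adjusted p = 0.0777, limma) rests on very few reads. Psmb9 footprints were 31.7 and 39.6 with PBS and 47.7 and 42.4 at 21 h (0.34, adjusted p = 0.0786, limma), and the call was made without the second PBS library (0.50, adjusted p = 0.0416). Psmb10 was level, with footprints of 98.8 and 92.4 with PBS and 93.1 and 93.5 at 21 h. Among listed partners and inducers of the immunoproteasome, Irf1, an interferon-response transcription factor, rose in footprints (0.86, adjusted p = 0.000382, limma). The peptide transporter genes Tap1 and Tap2, and also Tapbp, B2m and Nlrc5, were not called.

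All 6 ATPases of the 19S ring rose in footprints at 21 h, by 0.26 to 0.54. Psmc3 (ENSMUSG00000002102) had 373 and 368 scaled RPKM with PBS, 402 and 414 at 6 h and 548 and 509 at 21 h, a change of 0.51 (SE 0.08, adjusted p = 0.00116, limma). The groups did not overlap, and the step to 21 h was the larger one. In RNA-seq Psmc3 went from 61.6 and 64.0 with PBS through 79.4 and 70.5 at 6 h to 118 and 117 at 21 h, a change of 0.90 (SE 0.10, adjusted p = 0.000322, limma). Psmc2, Psmc4 and Psmc5 rose in both assays, with RNA changes of 0.43 to 0.47. Psmc1 and Psmc6 rose in footprints by 0.34 each, and their RNA changes were 0.34 (adjusted p = 0.0804, limma) and 0.37 (adjusted p = 0.0591). Footprint calls were lost for Psmc1 without the first PBS library (adjusted p = 0.0788, limma) or the first 21 h library (0.0716), and for Psmc2 without the second PBS library (0.0907) or the second 21 h library (0.0781). RNA calls of Psmc2, Psmc4 and Psmc5 were lost without 3, 3 and 2 of the 4 libraries (adjusted p up to 0.213, 0.14 and 0.0667, limma), and that of Psmc3 was kept without any 1 library.

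Of the 11 non-ATPase subunits, 8 had more footprints at 21 h (Psmd2, Psmd3, Psmd4, Psmd7, Psmd8, Psmd11, Psmd12 and Psmd13) and 1 had fewer (Psmd14). Psmd3 (ENSMUSG00000017221) had 103 and 102 scaled RPKM with PBS, 115 and 122 at 6 h and 165 and 161 at 21 h, a change of 0.67 (SE 0.08, adjusted p = 0.000552, limma). Psmd4 (ENSMUSG00000005625), a ubiquitin receptor, had footprints of 535 and 651 with PBS, 674 and 673 at 6 h and 926 and 859 at 21 h (0.60, adjusted p = 0.00213, limma). Its RNA was 101 and 92.8 with PBS, 107 and 102 at 6 h and 155 and 169 at 21 h, a change of 0.74 (SE 0.09, adjusted p = 0.00063, limma). Both 21 h libraries of Psmd4 were above all others in both assays. In RNA-seq Psmd2, Psmd3, Psmd4, Psmd7 and Psmd12 rose, and 0 of the 11 fell. The footprint calls of Psmd7 and Psmd11 were lost without some libraries. For Psmd7 these were the first PBS (adjusted p = 0.0883, limma) and the first 21 h library (0.0742), and for Psmd11 the second PBS (0.0949) and either 21 h library (0.0502 and 0.0576). Psmd3 RNA (0.37, adjusted p = 0.047, limma) lost its call without any 1 of the 4 libraries (adjusted p up to 0.238), and Psmd7 RNA without the first PBS library (0.0613). Psmd1, the largest scaffold of the base, and Psmd6 had footprint changes of -0.25 (adjusted p = 0.0567, limma) and 0.12.

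Psmd14 (ENSMUSG00000026914), the deubiquitinase that cuts ubiquitin chains from substrates, went the other way. Its footprints were 391 and 454 scaled RPKM with PBS, 386 and 410 at 6 h and 345 and 261 at 21 h. The 21 h libraries were lowest but far apart, and the change was -0.49 (SE 0.13, adjusted p = 0.0194, limma). The call was lost without the lower 21 h library, the second (-0.28, adjusted p = 0.105, limma), without the second PBS library (-0.38, adjusted p = 0.116) and with eBayes without trend (0.0793). Psmd14 RNA was 53.9 and 56.7 with PBS, 58.3 and 62.2 at 6 h and 55.3 and 52.7 at 21 h. Its RNA was highest at 6 h, while the 21 h and PBS libraries overlapped, with a change of -0.03 between them (adjusted p = 0.844, limma). Its TE change of -0.46 at 21 h had an adjusted p of 0.315 (limma), so that a difference between both assays was not shown.

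Of the 2 particles, the 20S constitutive subunits had 5 of 14 higher in footprints and 8 of 14 higher in RNA-seq at 21 h, with median changes of 0.09 and 0.36. The 19S subunits had 14 of 17 higher and 1 lower in footprints and 9 of 17 higher in RNA-seq, with medians of 0.34 and 0.37. Over all transcripts 18.9% were higher in footprints and 11.6% in RNA-seq. The difference between the particles was not tested. Summed over subunits, 20S footprint levels were 6391 and 6261 scaled RPKM with PBS, 7293 and 7184 at 6 h and 7670 and 7708 at 21 h. The 19S sums were 4175 and 4403 with PBS, 4449 and 4512 at 6 h and 5588 and 5309 at 21 h. Both sums lay above PBS in each treated library. The 20S sum rose more by 6 h, with the largest increments in Psmb3 and Psma2, and the 19S sum rose more between 6 h and 21 h.

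The chaperones and regulators were mixed. Psmd5, a 19S assembly chaperone, had footprints of 71.1 and 65.1 scaled RPKM with PBS, 90.2 and 96.2 at 6 h and 109 and 99.4 at 21 h, and rose by 0.61 (SE 0.10, adjusted p = 0.00186, limma). Its RNA rose by 0.66 (adjusted p = 0.0152, limma), a call lost without either PBS library (0.0819 and 0.067) or the first 21 h library (0.0801). The chaperones Psmd9 and Psmd10 had footprint changes of 0.29 and 0.06 and RNA changes of 0.61 and 0.47, none called. Of the 20S chaperones, Psmg3 rose in both assays (0.58 and 0.71) and Psmg4 in RNA-seq (0.46), whereas Psmg1 (-0.04 and 0.24) and Psmg2 (-0.27 and -0.40, adjusted p = 0.07 in RNA-seq, limma) were not called. Single libraries decided the RNA calls of Psmg3 (adjusted p = 0.0623 without the first PBS library and 0.0623 without the second 21 h library, limma) and Psmg4 (0.0773, 0.113 and 0.114 without the first PBS, second PBS and second 21 h library). Psmg4 footprints were 45.3 and 67.1 at 21 h against 40.9 and 36.7 with PBS, and were called higher without the first 21 h library (0.79, adjusted p = 0.0194, limma). Pomp, which guides the assembly of the beta rings, rose in footprints by 0.33 (adjusted p = 0.0333, limma) with an RNA change of 0.09.

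Of the 5 activators and inhibitors tested, Psme4 fell and Psmf1 rose in footprints at 21 h. Psme4 (ENSMUSG00000040850), which encodes the activator PA200, had 21.6 and 23.2 scaled RPKM with PBS, 18.0 and 19.3 at 6 h and 17.6 and 15.5 at 21 h. Its level was lower in each treated library than in both PBS libraries, with a change of -0.43 at 21 h (SE 0.14, adjusted p = 0.0385, limma). The call was lost without either PBS library (adjusted p = 0.0883 and 0.164, limma) and without the second 21 h library (0.159). It was also lost without the filter on low values (0.052), without scaling (0.051) and with only the groups compared (0.0588). Psme4 RNA was 13.5 and 14.4 with PBS and 12.6 and 11.8 at 21 h (-0.19, adjusted p = 0.417, limma). Psmf1, an inhibitor of the 20S core in vitro, had footprints of 49.8 and 40.6 with PBS and 65.6 and 68.2 at 21 h (0.57, adjusted p = 0.0111, limma), and lost the call without the second PBS library (0.0755). The interferon-inducible activator subunits Psme1 and Psme2 had footprint changes of -0.29 (adjusted p = 0.0622, limma) and -0.02, and Psme3, the nuclear activator PA28γ, 0.05. Psme1 was called lower without the first PBS library (-0.44, adjusted p = 0.0102, limma). None of the 5 was called in RNA-seq.

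Both members that match by symbol without being proteasome parts rose. Psmc3ip (ENSMUSG00000019303), a factor of meiotic recombination also called HOP2, had the largest called rise of all members, with footprints of 56.3 and 68.9 scaled RPKM with PBS, 66.9 and 59.8 at 6 h and 97.5 and 109 at 21 h (0.72, SE 0.13, adjusted p = 0.00251, limma). Its RNA was 11.0 and 14.7 with PBS, 17.5 and 17.8 at 6 h and 23.3 and 31.5 at 21 h (1.06, SE 0.19, adjusted p = 0.00354, limma). Psme3ip1, which binds PA28γ, rose by 0.55 in footprints and 0.68 in RNA-seq. Its footprints were 93.4 and 65.0 at 21 h against 57.1 and 49.1 with PBS. This call was lost without either PBS library (adjusted p = 0.06 and 0.175, limma) and without the first 21 h library (0.30, adjusted p = 0.166), and the RNA call without either PBS library (0.0806 and 0.0653) or the second 21 h library (0.092).

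Side by side, 18 members were called higher in both assays, which is 75% of the 24 called in footprints and 81.8% of the 22 called in RNA-seq. Over the 9295 transcripts tested in both assays, 775 were higher in both, 41.7% of those higher in footprints and 71.4% of those higher in RNA-seq. Psmc1, Psmc6, Psmd8, Psmd11, Psmd13 and Psmf1 were called in footprints alone and Psma4, Psma7, Psmb5 and Psmg4 in RNA-seq alone. Changes were above 0 in both assays for 37 members and below 0 in both for 5.

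**Figure D4:**
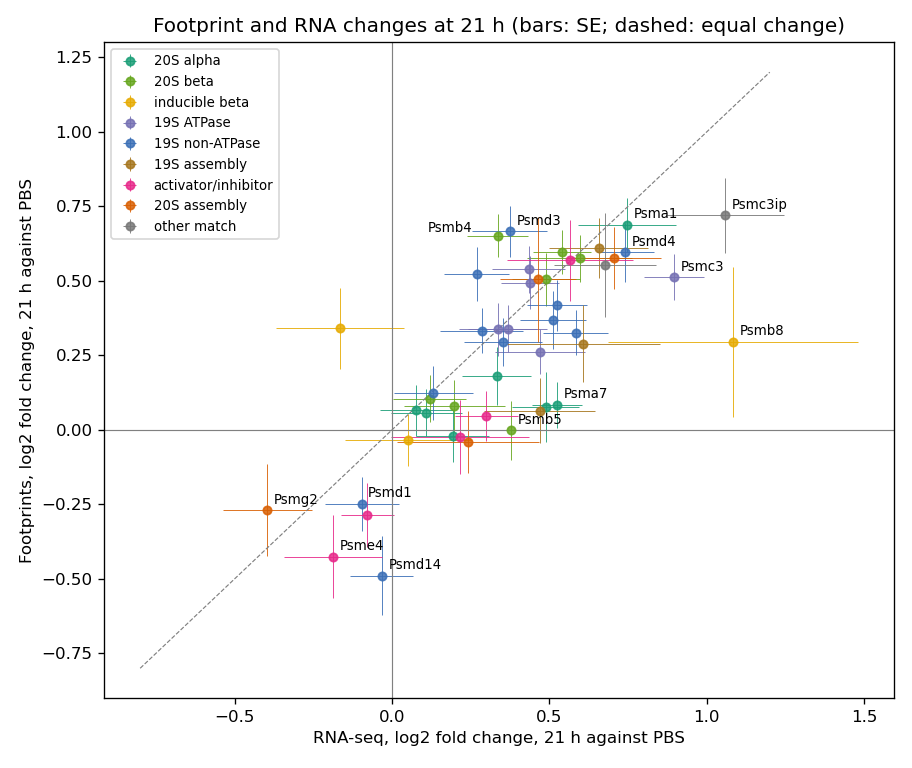
Change in footprints against change in RNA-seq at 21 h for the 48 tested members (log2 fold change against PBS, bars are SE from limma, color is role), with a dashed line where both are equal. Most points (37 of 48) lie above 0 in both assays, Psmd14 lies at -0.03 in RNA-seq and -0.49 in footprints, and Psma7 and Psmb5 lie near 0 in footprints with RNA changes of 0.52 and 0.38.

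A change in TE was then tested with an interaction term (assay by treatment). For no member was the change called at 21 h (limma, 0 of 48 higher and 0 lower, against 0.258% and 0.151% of 9295 transcripts) or at 6 h (0 and 0, against 0% and 0%). At an unadjusted p under 0.05, 1 member was higher at 21 h (Psmb4) and 5 were lower (Psmc3, Psma4, Psma7, Psmb5 and Psmd14), where 5.41% and 7.32% of all transcripts were, and at 6 h 1 was higher and 2 were lower (3.65% and 3.99%). The voom alternative on whole reads also called 0 members. The median TE change of the members at 21 h was -0.11 against -0.039 over all transcripts. Psma7 had the lowest adjusted p among the members, with a TE change of -0.44 (SE 0.10, adjusted p = 0.106, limma). At rest the members had a median TE (ratio of scaled RPKM) of 5.28 with PBS against 3.49 over all transcripts, with 5.64 for the 20S and 4.15 for the 19S subunits. Psma2 had the highest ratio, 22.8, on a listed transcript of 2911 bases with a coding length of 702, and a ratio over such a long transcript depends on the annotated ends.

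At 6 h little was called. In footprints Psmb3 (ENSMUSG00000069744), a structural beta subunit, was the only member higher and 0 were lower (1.05% and 0.992% of all transcripts). Psmb3 had 793 and 806 scaled RPKM with PBS, 1076 and 1043 at 6 h and 1159 and 1262 at 21 h, with no overlap between groups, and a change of 0.41 at 6 h (SE 0.08, adjusted p = 0.0385, limma). This call was lost without any 1 of the 4 libraries compared, with changes of 0.39 to 0.43 and adjusted p of 0.114 to 0.225. At an unadjusted p under 0.05, 12 members were higher and 2 lower in footprints (10.3% and 11% over all transcripts). In RNA-seq 0 members and 0 of all transcripts were called at 6 h (limma), with 10 members higher and 1 lower at an unadjusted p under 0.05 (5.69% and 5.81% over all), and the voom alternative called 0 members too, with 57 of all transcripts higher and 172 lower. The median change of members at 6 h was 0.10 in footprints and 0.15 in RNA-seq.

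The 21 h and 6 h libraries were also compared directly. In footprints 19 members were higher at 21 h and 3 lower (15% and 15.7% over all transcripts), and in RNA-seq 12 were higher and 0 lower (7.53% and 8.21%), with 1 lower at an unadjusted p under 0.05 (15.3% over all). Among footprints the largest rises were in Psmc3ip (0.70), Psme3ip1 (0.56), Psmd10 (0.52) and Psmb4 (0.51). The 3 that fell were Psmd14 (-0.41), Psma2 (-0.40) and Psmb5 (-0.39). Psma2 footprints were 719 and 642 scaled RPKM with PBS, 842 and 925 at 6 h and 680 and 661 at 21 h, highest at 6 h like those of Psmb5. Psmd10 footprints went the opposite way, from 79.0 and 90.6 with PBS to 65.3 and 58.3 at 6 h and 90.4 and 86.5 at 21 h. The largest rises in RNA-seq were in Psmd9 (0.90), Psmc3 (0.64), Psmd4 (0.64) and Psmb6 (0.59). Psmd9 was read only 14 to 43 times per RNA-seq library. These counts rest on single libraries, and so do the counts over all transcripts, which also fell when a library was left out. In footprints 10 were higher without the first 6 h library and 7 without the second, with 1 and 0 lower. In RNA-seq 4 and 7 were higher without the first and second 6 h library and 3 without the second 21 h library. Without scaling of the RNA-seq RPKM, 21 members were higher, and over all transcripts 1234 were then higher and 514 lower in place of 711 and 775.

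Genes that act with the proteasome were listed as well, 40 in all, of which 38 were tested in footprints. At 21 h 11 rose in footprints and 7 fell (18.9% and 20.2% over all transcripts), and in RNA-seq 9 of 40 rose and 4 fell (11.6% and 12.2% over all). Zfand2a, a zinc-finger protein that associates with the proteasome under arsenite stress, rose most. Its footprints were 7.81 and 5.97 scaled RPKM with PBS, 14.9 and 21.9 at 6 h and 45.0 and 47.7 at 21 h (2.68, SE 0.20, adjusted p = 5.06e-05, limma). Its RNA rose by 1.72. Zfand5, a related activator, rose by 0.68 in footprints, Pithd1 by 1.06 and the ubiquitin gene Ubb by 1.14. Zfand5 RNA was 4.91 and 4.26 scaled RPKM with PBS and 7.92 and 9.17 at 21 h. Pithd1 RNA was 5.03 and 8.36 with PBS and 20.4 and 12.1 at 21 h. Ubb also rose in RNA-seq (1.06), whereas the ubiquitin gene Rps27a fell there (-0.28). The ubiquitin-activating enzymes Uba1 and Uba6 were not called.

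Among the regulators of proteasome gene transcription, Nfe2l1 had footprints of 31.1 and 30.9 scaled RPKM with PBS and 35.0 and 41.0 at 21 h (0.28, adjusted p = 0.107, limma) and an RNA change of 0.31 (adjusted p = 0.29). Its relative Nfe2l2 rose in footprints (0.42, adjusted p = 0.00639, limma) and in RNA-seq (0.48, adjusted p = 0.0413). Their dimer partners Maff (1.06), Mafg (0.87) and Mafk (0.83) rose in footprints, and Maff (1.32) and Mafk (0.94) in RNA-seq. Ngly1, the deglycosylase that processes NFE2L1, fell in footprints from 13.1 and 13.4 with PBS to 8.48 and 7.25 at 6 h and 5.44 and 3.32 at 21 h (-1.53, SE 0.24, adjusted p = 0.00141, limma) and in RNA-seq (-0.92, adjusted p = 0.0315). Vcp, the ATPase that extracts NFE2L1 from the ER, rose in RNA-seq alone (0.48). Ddi2, the protease that cleaves NFE2L1, was too low in footprints to be tested, and its RNA change was 0.47 (adjusted p = 0.12, limma).

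Of the associated proteins, the falls in footprints were in Ecpas, an adaptor of the 26S proteasome (-0.75), the ubiquitin ligases Ube3c (-0.55) and Ube3a (-0.45) and the nuclear import factor Akirin2 (-0.45). The shuttle factor Rad23b also fell (-0.28) and Ubqln1 rose (0.39). Ube3c fell in RNA-seq too (-0.71), and the deubiquitinase Uchl5 rose there (0.54). The 19S subunit genes Adrm1 and Sem1, whose symbols do not match, and the deubiquitinase Usp14 were not called in either assay. Adrm1 footprints were 1.25 to 4.17 scaled RPKM on the listed transcript, far below the 19S members.

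Proteasome genes are short. The genomic span of the 48 tested members had a median of 11.9 kb (RefSeq, GRCm38.p6, used as a length only), against 22.5 kb for all transcripts tested in footprints. Over all transcripts the change at 21 h ran lower with span, with a Spearman rho of -0.49 in footprints and -0.37 in RNA-seq, across genes that share libraries and are not independent. The median footprint change was -0.47 for 3257 transcripts over 40 kb and 0.17 for 7081 up to 40 kb. Among the members rho was -0.18 in footprints and -0.23 in RNA-seq. The 5 members over 40 kb, Psmb7, Psmd1, Psmd11, Psmd14 and Psme4, had a median footprint change of -0.25, and the other 43 had 0.34. In RNA-seq these medians were -0.03 and 0.44, against -0.32 and 0.14 over all transcripts. Both members with called falls, Psmd14 at 88.7 kb and Psme4 at 109 kb, are the longest. The limit of 40 kb was chosen with the values known, and the part of span in the members' changes was not tested.

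**Figure D5:**
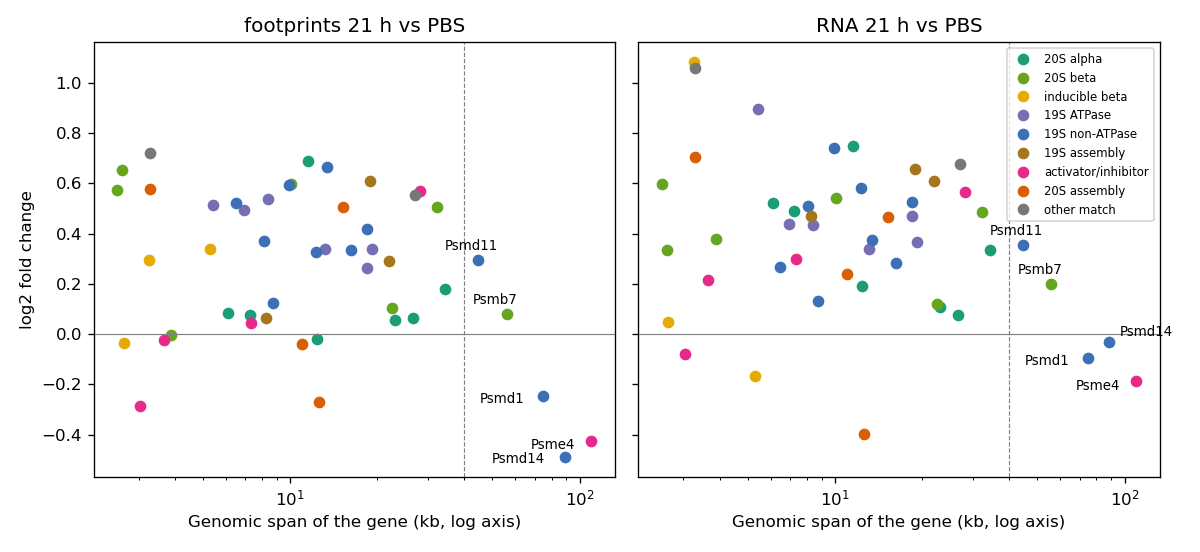
Log2 fold change at 21 h against PBS of the 48 tested members by genomic span (kb, log axis), footprints left and RNA-seq right, colored by role, with a dashed line at 40 kb. Members up to 40 kb have medians of 0.34 and 0.44, and Psmd1, Psmd14 and Psme4, the 3 longest, lie below 0 in both panels.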

How the data were processed

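Ribosome profiling and RNA-seq were analysed in 12 libraries of KPC cells. The authors deposited RPKM per library with 1 transcript per gene, where footprints are per coding length and RNA-seq reads per transcript length. The submitters' processing notes list cutadapt, STAR and GRCm39, without versions or roles. How reads that fit several copies (pseudogenes, Psme2 and Psme2b) were counted, and whether strand was used, is not given in the sources used here. Transcripts not listed in a library were set to 0. Multiplied by length, 100% of the RPKM values were whole multiples of the value of 1 read (tolerance 0.01), which gave the reads and depths. Read numbers cover counting error only.

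Here, median-of-ratios factors (0.959 to 1.095) scaled the libraries of an assay to each other. Transcripts whose scaled RPKM averaged 1 or more were fitted as log2(RPKM + 0.5) with limma 3.58.1 (lmFit, eBayes with trend, R 4.3.3), with the 3 groups of an assay in 1 model and TE as an assay by treatment term in a model of all 12 libraries. Two-sided p-values were adjusted after Benjamini-Hochberg over all transcripts tested, with a threshold of 0.05. A fold change on this scale understates that of low transcripts. By exact permutation, 2 libraries against 2 could give no two-sided p under 0.333. The PBS libraries are the control of both time points. Spans and promoters are from RefSeq on GRCm38.p6, spans for 99.1% of 15803 transcripts. No GRCm39 coordinates were used here.

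The members and lists were chosen with earlier results of these data known. Named in full were up to 4 called members with the largest rise and fall per comparison. Also named were the catalytic, inducible, activator, inhibitor and assembly genes, Psmd14, the non-proteasome and near-copy matches, every called member, and related genes called at 21 h (some listed genes are not reported here) and Pomp, Adrm1, Sem1, Uchl5, Usp14, Nfe2l1, Nfe2l2 and Ddi2. Python 3.11.15, pandas 2.3.3, numpy 2.4.6 and matplotlib 3.10.9 were used, and the fit was tested on simulated data. As alternatives, the pseudocount was 0.1 or 1, the filter was dropped or raised to 5 RPKM, and the fit was run with no scaling, quantile normalization, eBayes without trend, only the groups compared, a replicate block, voom on the recovered reads and leaving out each library.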

Additional observations from a re-analysis of the deposited data

Results flagged for a closer look

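The members whose change differed between 21 h and 6 h of Cis are listed here, since the same contrast with PBS gave different changes at both times. The difference was tested directly, as 21 h against 6 h (limma with Benjamini-Hochberg adjustment, adjusted p under 0.05), and values are log2 fold changes between these times.

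In footprints, Psmc3ip rose most (0.70), followed by Psme3ip1 (0.56), Psmd10 (0.52), Psmb4 (0.51) and Psmc6 (0.51). Of the core subunits, Psma1 (0.48), Psmb2 (0.43) and Psmb6 (0.35) also rose. Among the ATPases these were Psmc1 (0.45), Psmc4 (0.45), Psmc3 (0.37) and Psmc5 (0.37). Non-ATPase subunits with a rise were Psmd3 (0.46), Psmd12 (0.41), Psmd4 (0.41), Psmd2 (0.39), Psmd8 (0.37), Psmd6 (0.29) and Psmd11 (0.27). Psmd14 (-0.41), Psma2 (-0.40) and Psmb5 (-0.39) fell. Psmb5 and Psma2 had changes of 0.39 and 0.38 at 6 h against PBS and -0.0021 and -0.02 at 21 h, whereas Psmd10 had -0.45 at 6 h and 0.06 at 21 h. Of these 22 calls, 17 were lost without at least 1 library.

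In RNA-seq, Psmd9 (0.90), Psmc3 (0.64), Psmd4 (0.64), Psmb6 (0.59) and Psma1 (0.58) rose most. Psmd12 (0.54), Psmc6 (0.50), Psmb2 (0.43), Psmc4 (0.40), Psmd2 (0.38), Psma7 (0.35) and Psmb3 (0.32) rose as well. Of these 12 calls, 9 were lost without at least 1 library.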

How the results depend on the processing

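No called change turned its direction under the alternatives run. Of the comparisons of named changes with their alternatives, 1296 kept their side of the threshold, 229 lost it and 12 gained it. In footprints at 21 h, 15 of 26 calls were kept under every alternative, in RNA-seq 3 of 22 (Psmc3, Psmc3ip and Psmd4), and between 6 h and 21 h 5 of 22 and 0 of 12. RNA-seq calls rest on fewer reads than footprint calls. The cause of the moves below was not tested.

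Of footprints at 6 h (1 higher, 0 lower), 0 were higher without a filter, without the trend and with a replicate block, 3 with a mean of at least 5 RPKM, 4 with only the groups compared, and 6 (1 lower) with voom. Leaving out libraries gave 0 to 0. At 21 h (2 lower), 1 was lower without a filter, without scaling, without the trend, with only the groups compared and with a replicate block, 4 with voom, and 0 to 2 with libraries left out. The count higher at 21 h was 16 without the trend. From 6 h to 21 h (19 higher, 3 lower), 10 were higher and 0 lower without the trend, and 7 to 16 higher and 0 to 2 lower with libraries left out. In RNA-seq at 21 h (22 higher, 0 lower), 6 were higher without the trend, 11 to 15 with libraries left out, and 1 was lower with quantile normalization. From 6 h to 21 h (12 higher), 6 were higher without a filter, 21 without scaling, 7 with quantile normalization, 0 without the trend and 3 to 8 with libraries left out. Voom called 24 members higher at 21 h in footprints and 27 in RNA-seq. Counts over all transcripts moved with the settings too. In footprints at 6 h these were 109 higher and 103 lower, 0 and 0 without the trend, and 454 and 822 with voom. In RNA-seq from 6 h to 21 h 711 were higher, 423 without a filter and 360 without the trend. With voom at 21 h, 2262 were higher in footprints and 1481 in RNA-seq.

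No pairing by replicate number was seen, as deviations of libraries with the same number had correlations of -0.014 to 0.021. Counting error weakens such correlations, so they cannot exclude a pairing. With the replicate number as a block, 24 members were higher and 1 lower in footprints at 21 h, and 23 higher in RNA-seq. Psmb8 RNA was then called higher (adjusted p = 0.0411, limma) and the fall of Psme4 footprints was not called (0.059). Over all transcripts at 21 h in RNA-seq, 1093 were higher and 1152 lower, 510 and 548 without the first PBS library, and 712 and 889 without the trend.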
